A study of Mus musculus with 11 samples.

Results

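The comparison described here set cultures kept for 4 days in a neuron medium (group Neuron, 3 libraries) against the proliferating neural stem cells from which such cultures began (group NSC, day 0, 3 libraries). It was carried by the 12851 genes that reached 1 CPM (read counts scaled to a common library total) in at least 2 of these 6 libraries, of 37991 genes listed. The rule used the level of a gene and not its change. Of these genes 11418 reached 1 CPM in at least 2 libraries of both groups, 1042 did so in Neuron alone and 383 in NSC alone, and the last 8 had 1 such library in each group. Genes that entered through a single group had to differ between the groups to some degree. The 196 genes just inside the rule, with exactly 2 libraries at 1 CPM, had a median highest value of 1.3 CPM, and the 190 genes just outside it, with exactly 1 such library, had a median highest value of 1.11 CPM.

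All cells came from the frontal cortex of C57BL/6J mouse embryos at stage E14.5 and were expanded in a proliferation medium, Complete Embryonic NeuroCult. NSC cultures were collected in that state. For Neuron cultures the medium was replaced at 70% confluency by Neurobasal that held B-27 supplement at 2% and GlutaMAX-1 at 2 mM, renewed every 48 hours until day 4. Cultures under 2 other media served here as further references at day 4. The Oligodendrocyte group (2 libraries) had the neuron medium plus the thyroid hormone T3 at 30 ng/mL, and the Astrocyte group (3 libraries) had DMEM that held fetal bovine serum and N-2 supplement at 1% each and GlutaMAX-1 at 2 mM. No culture held in proliferation medium until day 4 was analysed here, so the change of medium and the time in culture cannot be told apart. The name Neuron stands for the medium. By their markers the cultures held RNA of neuronal, astrocytic and oligodendrocytic marker genes alike.

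Neural stem cells of the embryonic cortex divide and carry the filament protein nestin. When they leave the cell cycle they can give rise to neurons, which need cytoskeletal proteins for moving and extending processes, or to astrocytes and oligodendrocytes, the glia that take up transmitter and wrap axons in myelin. Each of these fates has marker genes. How far the RNA of each listed gene was confined to its named fate was not tested in these mixed cultures.

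RNA sequencing of poly(A)-selected, stranded libraries gave the values. The denominators of the CPM scale were estimated at 57.4 to 59.4 M (mega) reads for NSC and 49.3 to 61.4 M for Neuron. Pearson correlations of log2(CPM + 1) were taken over the 12851 genes, which are not independent replicates. They were 0.9972 to 0.999 between NSC libraries, 0.9891 to 0.998 between Neuron libraries and 0.8025 to 0.8089 between the groups. RNA encoded in mitochondrial DNA made up 6.117% ± 0.1027 (SD, n = 3) of the listed CPM in NSC and 9.748% ± 1.462 (SD, n = 3) in Neuron, with no overlap. The exact two-sided permutation p was 0.1, the smallest that 3 against 3 can give. When CPM were rescaled to nuclear genes, 10825 genes were called in place of 10798.

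Neuron library 2 stood somewhat apart from the other 2 Neuron libraries. It had the highest mitochondrial share, 11.425% against 9.079% and 8.741%, and was the lowest of the 3 in 49.9% and the highest in 35.5% of the 12851 genes. Among oligodendrocyte precursor genes it was the lowest in 16 of 18, among young neuron genes in 16 of 20, and among mitosis genes in 19 of 22. It was the highest in 14 of 22 astrocyte genes and 15 of 21 lysosome genes. Without it the number of called genes was 10998, and the counts of every gene list given below moved by at most 2 genes in either direction.

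Most expressed genes differed between day 0 and day 4. With limma on log2(CPM + 1) and Benjamini-Hochberg adjustment over all 13342 genes tested in the series, 10798 of the 12851 genes (84.0%) were called at an adjusted p under 0.05. Of all members, 5541 (43.1%) were higher in Neuron and 5257 (40.9%) were lower, while 2053 were not called. On this scale 4237 genes were called and differed by 2-fold or more (33.0%), of which 2390 were higher (18.6% of members) and 1847 lower (14.4%). At 16-fold or more there were 94 higher and 121 lower genes. The median log2 fold change over all members was 0.03 and the median size among called genes was 0.82. The libraries of the groups did not overlap for 10750 genes (83.7%), with Neuron higher in 42.7% of members and lower in 40.9%. Against so high a background, a share of called genes near 84.0% says little about a gene list, so lists are described below by their direction and size.

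**Figure D1:**
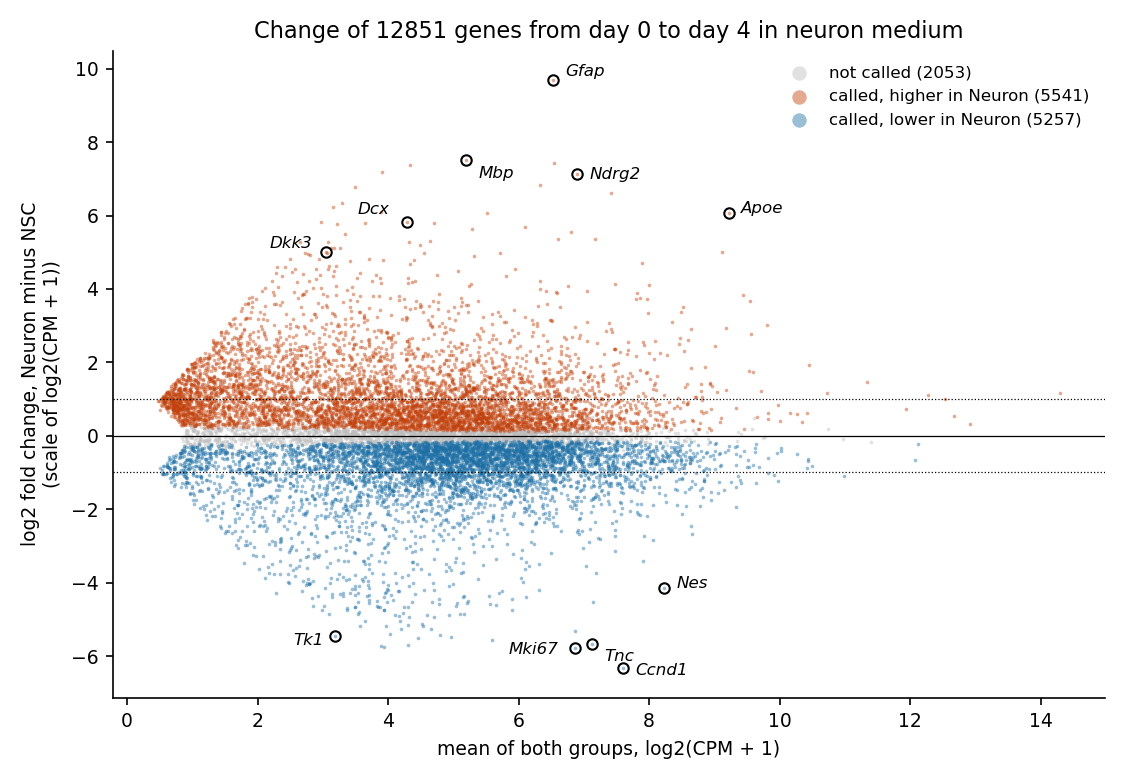
Log2 fold change (Neuron minus NSC, vertical) against mean log2(CPM + 1) of both groups (horizontal) for the 12851 genes, colored by the limma call. Called genes lie on both sides of 0, 5541 above and 5257 below, and the marker genes Gfap, Mbp and Dcx stand at the top while Mki67 and Nes stand at the bottom.

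Single marker genes of 3 neural fates, Dcx, Gfap and Mbp, rose, and Nes and Mki67, of progenitors and dividing cells, fell. The fuller lists of progenitor, young neuron, astrocyte, precursor and myelin genes, given below, each held genes of both directions. Nes (chr3:87775000-87784373, build mm9, as for every gene position below), which encodes nestin, measured 1253.19, 1246.48 and 1254.54 CPM in the NSC libraries and 71.03, 62.50 and 77.67 CPM in the Neuron libraries. Mki67 (chr7:142881471-142908062), which encodes the Ki-67 protein of dividing cells, measured 849.07, 901.58 and 784.27 CPM in NSC and 18.20, 9.63 and 17.06 CPM in Neuron. Both genes were high in every NSC library and low in every Neuron library. On the log2 scale Nes changed by -4.14 (SE 0.08, adjusted p = 3.55e-14) and Mki67 by -5.77 (SE 0.17, adjusted p = 1.21e-12). In these bulk cultures fewer cells of a type and less RNA per cell cannot be told apart.

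Dcx (chrX:140290385-140367854), which encodes doublecortin, a microtubule binding protein of migrating young neurons, measured 1.45, 2.02 and 1.33 CPM in NSC and 177.06, 105.84 and 160.23 CPM in Neuron. Gfap (chr11:102748650-102762226), the glial intermediate filament of astrocytes, measured 2.08, 2.63 and 1.94 CPM in NSC and 2449.37, 2828.12 and 2662.62 CPM in Neuron. Mbp (chr18:82644538-82755029), a main protein of compact myelin, measured 1.30, 1.74 and 2.09 CPM in NSC and 521.84, 456.36 and 507.33 CPM in Neuron. All 3 genes were near the detection rule at day 0 and above 100 CPM in each Neuron library, with library 2 the lowest of the 3 for Dcx and Mbp and the highest for Gfap. The log2 fold changes were 5.81 (SE 0.16, adjusted p = 6.21e-13) for Dcx, 9.69 (SE 0.10, adjusted p = 4.75e-16) for Gfap and 7.53 (SE 0.14, adjusted p = 3.07e-14) for Mbp. Among the day 4 cultures, Dcx did not differ by the test between Neuron and Astrocyte (log2 difference 0.21, adjusted p = 0.256) and was higher in Neuron than in Oligodendrocyte (0.73, adjusted p = 0.00255). RNA of the label's own marker Dcx and of the markers Gfap and Mbp of other fates was therefore present in Neuron. Which cells held the Dcx RNA was not tested.

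**Figure D2:**
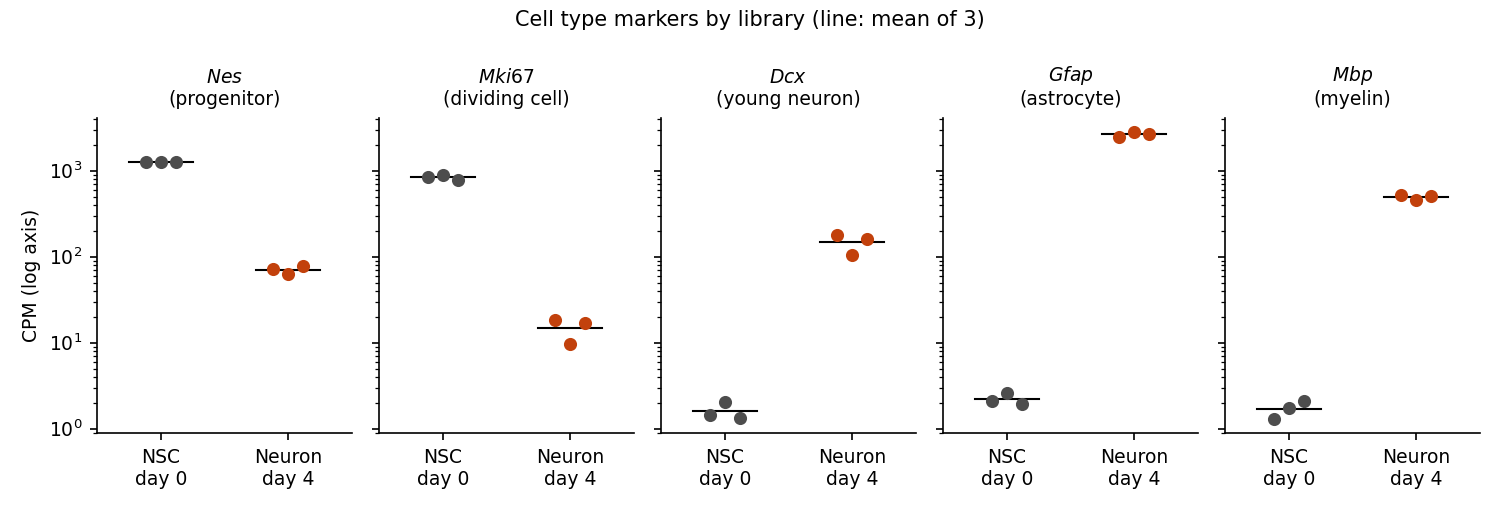
CPM of Nes, Mki67, Dcx, Gfap and Mbp on a logarithmic axis, with 1 point for each library and a line at the mean of 3. The groups do not overlap for any of the 5 genes, and Nes and Mki67 fall where Dcx, Gfap and Mbp rise.

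Genes of the cell cycle fell together. All 25 DNA replication genes and all 22 mitosis genes fell, each by at least 2-fold, with a median log2 fold change of -3.56 and -4.65, against 0.03 over all members. Tk1 (chr11:117676840-117687406), the thymidine kinase that salvages a DNA precursor, measured 58.30, 55.51 and 63.94 CPM in NSC and 0.49, 0.36 and 0.24 CPM in Neuron. Mcm5 (chr8:77633427-77652338), a subunit of the replicative helicase, measured 132.51, 131.02 and 142.39 CPM in NSC and 3.00, 2.89 and 2.72 CPM in Neuron. Top2a (chr11:98854257-98885503), the topoisomerase that untangles chromosomes, measured 721.33, 751.38 and 720.90 CPM in NSC and 19.70, 12.77 and 20.39 CPM in Neuron. Each Neuron library was below every NSC library for these genes. The log2 fold changes were -5.47 for Tk1 (adjusted p = 1.87e-14), -5.14 for Mcm5 (adjusted p = 1.56e-14) and -5.33 for Top2a (adjusted p = 1.64e-13). Cyclin A2 (Ccna2) fell by 5.55 on the log2 scale and Mcm10, which loads the replication machinery, fell by 4.74. Between Neuron and Astrocyte 61.8% of members were called, 22.7% higher and 39.1% lower in Neuron, and of the 22 mitosis genes 14 were lower and 0 higher. Between Neuron and Oligodendrocyte 67.2% of members were called, 24.3% higher and 42.9% lower in Neuron, and of the mitosis genes 9 were lower and 2 higher. Of the 25 replication genes, 12 were lower and 3 higher in Neuron than in Astrocyte, and 20 were lower and 2 higher than in Oligodendrocyte.

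The RNA of these genes depends in part on promoter elements, among them the CCAAT box and the CHR element TTTGAA of mitotic genes and the E2F sites TTTCGCGC and TTTGGCGC of replication genes. Promoter windows from RefSeq (build GRCm38.p6, from 250 bases before to 50 after the start) were found for 17 of the 22 mitosis genes and 19 of the 25 replication genes, the latter with 21 windows. The 4 sequences below are the 160 bases before the start of the 2 genes in each list with the largest falls among those with a window, and show what the search found. Capitals mark a searched motif on either strand, so CCAAT may read as ATTGG on this strand and TTTGAA may read as TTCAAA. Runs of capitals in which sites overlap are longer.
Mki67, chr7:135716380-135716539, minus strand: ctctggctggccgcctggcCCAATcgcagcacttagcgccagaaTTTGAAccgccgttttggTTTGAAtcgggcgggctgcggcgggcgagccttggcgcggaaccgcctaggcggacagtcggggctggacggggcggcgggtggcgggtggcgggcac
Top2a, chr11:99024190-99024349, minus strand: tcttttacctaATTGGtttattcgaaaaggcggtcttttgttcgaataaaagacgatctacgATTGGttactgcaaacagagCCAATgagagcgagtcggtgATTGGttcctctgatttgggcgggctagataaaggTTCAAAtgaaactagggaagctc
Tk1, chr11:117826015-117826174, minus strand: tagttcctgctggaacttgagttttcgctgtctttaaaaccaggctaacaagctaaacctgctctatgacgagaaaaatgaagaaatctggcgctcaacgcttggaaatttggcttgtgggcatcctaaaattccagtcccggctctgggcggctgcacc
Mcm5, chr8:75109349-75109508, plus strand: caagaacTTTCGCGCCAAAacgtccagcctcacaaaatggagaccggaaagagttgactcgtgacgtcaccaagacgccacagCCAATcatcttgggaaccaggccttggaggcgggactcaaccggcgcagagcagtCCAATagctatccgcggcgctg

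Over all 300 bases of a window, CCAAT was found in 14 of 17 windows of mitosis genes (82.4%) and 15 of 21 windows of replication genes (71.4%), beside 37.4% of the 32851 windows of the table. TTTGAA was found in 11 mitosis windows (64.7%) and 3 replication windows (14.3%), beside 17.9% in the table. An E2F site, TTTCGCGC or TTTGGCGC, was found in 7 replication windows (33.3%) and 1 mitosis window (5.9%), beside 0.8% in the table. In the printed stretches, Mki67 holds 1 CCAAT box and 2 TTTGAA elements, Top2a holds 4 CCAAT boxes and 1 TTTGAA element, and Mcm5 holds overlapping E2F sites and 2 CCAAT boxes. None of the searched motifs occur in the window of Tk1. These matches describe the letters of the windows and no binding was measured.

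Of the 6 genes of the G1 phase, cyclins D1 to D3 and the kinases Cdk2, Cdk4 and Cdk6, all 6 fell (median -1.62). Ccnd1 (chr7:152115836-152125774), the cyclin that links growth factor signals to the start of the cycle, measured 1713.26, 1702.79 and 1781.85 CPM in NSC and 22.57, 16.77 and 22.46 CPM in Neuron. This was the largest fall of any member with at least 10 CPM in a group, at -6.34 on the log2 scale (SE 0.10, adjusted p = 9.66e-15). Genes of cell cycle inhibitors did not move as a group, with 6 higher and 7 lower (median -0.40). Cdkn1b, which encodes the inhibitor p27, averaged 108.1 CPM in NSC and 208 CPM in Neuron (log2 fold change 0.94), whereas Cdkn1a, which encodes p21, fell from 234.6 to 57.87 CPM (-2.0). Cdkn1a was lower in Neuron than in Astrocyte (111.6 CPM) and Oligodendrocyte (338.9 CPM).

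The neural progenitor genes were split. Of 19 matched genes 7 were higher, 10 lower and 2 not called (median -0.51), and 1 list gene, Sox1, was not matched in the table. Besides Nes, the falls were led by Id3, an inhibitor of bHLH factors that responds to BMP signals, from 75.62 ± 5.71 to 10.94 ± 0.262 CPM (SD, n = 3 in each group; log2 fold change -2.68). The receptor gene Egfr fell from 571.9 ± 47.2 to 161.8 ± 13.5 CPM (-1.81). Against this majority, the transcription factor genes Sox2 (281.3 to 533.8 CPM, 0.92), Pax6 (36.81 to 80.41 CPM, 1.11), Hes5 (13.87 to 23.36 CPM, 0.71) and Nr2e1 (31.38 to 42.55 CPM, 0.43) rose. So did the RNA binding protein gene Msi1 (46.25 to 107.1 CPM, 1.20), the surface protein gene Prom1 (3.437 to 11.08 CPM, 1.45) and the receptor gene Fgfr1 (163.1 to 270.9 CPM, 0.73). Sox2, Hes5 and Fgfr1 also serve in glia. Msi2 (adjusted p = 0.252) and Id1 (adjusted p = 0.0859) were not called.

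Feedback genes of the ERK pathway, which carry growth factor signals from receptor kinases such as Egfr, mostly fell. Of 18 members 14 were lower, 1 was higher and 3 were not called, with a median log2 fold change of -1.10. Spry4 (chr18:38745922-38760922), an inhibitor induced by the pathway, measured 273.28, 275.46 and 283.13 CPM in NSC and 12.14, 10.23 and 12.89 CPM in Neuron (-4.45, adjusted p = 4.76e-14). Dusp6 (chr10:98725865-98730122), a phosphatase for ERK, measured 224.50, 235.86 and 260.74 CPM in NSC and 15.56, 22.25 and 17.98 CPM in Neuron (-3.63, adjusted p = 1.69e-11). Every NSC library exceeded every Neuron library for both genes. Etv4 (84.3 to 14.2 CPM, -2.49) and Etv5 (358 to 85.3 CPM, -2.06), which encode ETS factors downstream of FGF and EGF receptors, fell as well. Fos rose instead, from 16.84 to 38.51 CPM (log2 fold change 1.15), and Spred1, Etv1 and Lif were not called. Compared with the other media, 12 of these 18 genes were higher in Neuron than in Astrocyte and 3 lower, where 22.7% of all members were higher. Against Oligodendrocyte 11 were higher and 4 lower, where 24.3% of all members were higher.

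Notch genes did not move in 1 direction, with 5 of 15 members higher, 6 lower and 4 not called (median -0.07). The ligand gene Jag1 fell from 35.96 ± 1.90 to 5.45 ± 1.30 CPM (-2.54) and Lfng, which modifies the receptor, fell from 133.4 to 33.31 CPM (-1.97). Receptor gene Notch2 rose from 43.05 to 97.41 CPM (1.16) and Notch1 fell from 211 to 149 CPM (-0.51). Of the target genes, Hes1 fell (20.2 to 9.33 CPM, -1.04) while Hes5 rose, as given above, and Hey1 rose (29.6 to 49.26 CPM, 0.72).

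Most young neuron genes rose, while 4 genes of extending or mature axons stayed below the rule. Of the 24 genes listed, 20 were members: 13 were higher, 5 lower and 2 (Map2 and Elavl2) not called, with a median log2 fold change of 0.56. Mapt, which encodes the axonal protein tau, measured 31.27, 29.82 and 31.44 CPM in NSC and 222.03, 195.12 and 227.06 CPM in Neuron (2.76, SE 0.06, adjusted p = 1.12e-13). Neurexin gene Nrxn3 measured 0.76, 1.24 and 0.84 CPM in NSC and 12.11, 9.48 and 11.57 CPM in Neuron. Neuronal tubulin Tubb3 averaged 3.90 CPM in NSC and 28.4 CPM in Neuron (2.59), and the RNA binding protein gene Elavl3 averaged 17.9 and 90.9 CPM (2.28). These 4 genes were higher in every Neuron library, with library 2 the lowest of the Neuron libraries for Mapt and Nrxn3. Which cells made this RNA was not tested, so the rises do not by themselves show that neurons formed.

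The other direction was taken by 5 young neuron genes, Gap43 (71.01 to 21.63 CPM, -1.67), Sox11 (32.49 to 14.11 CPM, -1.17), Cd24a (125.7 to 68.52 CPM, -0.87), Dpysl3 (408.5 to 306.5 CPM, -0.42) and Elavl4 (29.33 to 21.84 CPM, -0.41). Gap43 is a growth cone protein of extending axons. Stmn2, Nefl, Nefm and L1cam, genes of extending or mature axons, stayed below the rule: their mean was under 1 CPM in both groups, for example 0.063 and 0.417 CPM for Stmn2 and 0.127 and 0.147 CPM for Nefl. Young neuron genes were higher in Neuron than in Astrocyte for 12 of 20 and lower for 4, beside 22.7% and 39.1% of all members. They were higher than in Oligodendrocyte for 12 and lower for 5, beside 24.3% and 42.9% of all members.

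Synaptic and ion channel genes changed modestly. Of 22 members, 14 were higher, 5 lower and 3 not called (median 0.66), and 2 of the 24 listed were below the rule. Gria1, a subunit gene of the AMPA receptor for glutamate, measured 1.37, 1.46 and 1.60 CPM in NSC and 28.45, 24.58 and 28.35 CPM in Neuron (3.50, adjusted p = 1.52e-11). Synaptophysin (Syp) averaged 11.6 and 21.1 CPM (0.82) and Snap25 1.46 and 3.02 CPM (0.70). Under quantile scaling Snap25 was not called (0.23), and the list had 11 higher and 7 lower genes with a median of 0.27. The falls were led by Camk2b, from 265.3 ± 3.59 to 15.8 ± 0.436 CPM (-3.99, adjusted p = 5.41e-15), and Nrgn, from 14.25 to 0.31 CPM (-3.57). Both encode proteins of calcium and calmodulin signalling at synapses.

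Genes of dorsal glutamatergic neurons, the main output of the cortex, were mostly below the rule, 9 of 13, among them Tbr1, Slc17a6, Slc17a7 and Neurod6. Of the 4 members 2 were higher and 2 lower (median 0.18). The proneural factor gene Neurog2 was among the higher, from 0.10 to 2.13 CPM (1.51). Genes of the ventral GABAergic lineage, which makes the inhibitory interneurons, rose in 8 of 9 members with none lower (median 1.33), and 8 of the 17 listed were below the rule or at 0. Dlx1, a homeobox factor of that lineage, measured 3.63, 3.96 and 3.77 CPM in NSC and 24.23, 20.11 and 28.35 CPM in Neuron (2.39, SE 0.13, adjusted p = 9.78e-10). Gad1, which makes GABA, rose from 15.5 to 35.3 CPM (1.13), while Lhx6, Sst and Npy of later interneurons stayed under 0.2 CPM in the mean of both groups. Compared with Astrocyte, 8 of the 9 members were lower in Neuron and 1 was higher, beside 39.1% and 22.7% of all members. Compared with Oligodendrocyte, 6 were higher and 0 lower, beside 24.3% and 42.9% of all members.

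Regulators of neural splicing and of the BAF chromatin complex, both known to switch as progenitors become neurons, changed in part. Ptbp1, the repressor of neuronal exons in progenitors, fell from 255.1 to 76.59 CPM (-1.72, adjusted p = 4.23e-12), and its neuronal relative Ptbp2 rose from 124 to 140 CPM (0.18), a call that median-of-ratios scaling ended (0.11). Srrm4, an activator of neuronal microexons, rose from 0.223 to 1.68 CPM (1.13). Of the BAF genes 7 rose and 7 fell (median 0.03). The progenitor subunit gene Actl6a fell from 80.71 ± 1.92 to 21.67 ± 1.01 CPM (-1.85, adjusted p = 7.45e-12), and its neuronal counterpart Actl6b rose from 0.073 to 1.107 CPM (0.96). Library 2 was the lowest Neuron library in 12 of the 14 BAF genes, and without it 7 rose and 6 fell (median 0.05).

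Most astrocyte genes rose. Of 22 members 18 were higher, 2 lower and 2 not called, 16 of them at least 2-fold higher, and the median log2 fold change was 2.57. Apoe (chr7:20281458-20284515), a lipid carrier made by astrocytes, measured 69.48, 66.77 and 78.84 CPM in NSC and 4285.04, 5786.13 and 4642.55 CPM in Neuron (6.07, adjusted p = 1.96e-14). Aqp4 (chr18:15547903-15562193), the water channel of astrocyte endfeet, measured 14.57, 15.15 and 15.79 CPM in NSC and 738.16, 806.48 and 745.33 CPM in Neuron (5.56, adjusted p = 2.20e-15). All Neuron libraries were far above all NSC libraries, and library 2 was the highest for both. The summed CPM of the 22 genes was 3235.2 to 3356.6 in NSC and 17905.2 to 20720.9 in Neuron.

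Other astrocyte genes followed in their roles. The transmitter uptake genes Slc1a2 (57.2 to 870 CPM, 3.90) and Slc1a3 (1135 to 2527 CPM, 1.15), the glutamine synthetase gene Glul (210.3 to 2672 CPM, 3.66) and the gap junction gene Gja1 (60.44 to 1061 CPM, 4.11) rose. Fgfr3 (86.86 to 74.36 CPM, -0.22) and the gliogenic factor gene Nfib (363.3 to 170.9 CPM, -1.08) fell, and Acsbg1 and Nfia were not called. Under quantile scaling Fgfr3 was not called (-0.12). Compared with Astrocyte, 12 of the 22 were lower in Neuron and 7 higher, beside 39.1% and 22.7% of all members. Gfap itself was lower by 1.52 on the log2 scale (adjusted p = 2.79e-08, mean 7631 CPM in Astrocyte). Against Oligodendrocyte 14 were higher and 5 lower, beside 24.3% and 42.9% of all members. The astrocyte and neuron media differed in base, supplement and serum, which cannot be told apart here.

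Most oligodendrocyte precursor genes and myelin genes rose as well. Of 18 precursor genes 12 were higher, 5 lower and 1 (Ptprz1) not called (median 1.76). Enpp6 (chr8:48072279-48180249), a marker of newly forming oligodendrocytes, measured 0.37, 0.21 and 0.13 CPM in NSC and 209.73, 134.61 and 199.62 CPM in Neuron (7.18, adjusted p = 1.12e-13). Gpr17 (chr18:32102651-32109290), a receptor of committed precursors, measured 6.40, 5.86 and 7.08 CPM in NSC and 999.09, 638.78 and 950.32 CPM in Neuron (6.83, adjusted p = 4.26e-14). All Neuron libraries were above all NSC libraries, and library 2 was well below the other 2 Neuron libraries for both genes. Without that library the list had 13 higher and 5 lower.

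The transcription factor gene Sox10 rose from 2.71 to 135 CPM (5.2) and Pdgfra, the PDGF receptor of precursors, from 21.2 to 211 CPM (3.24). Olig1 (1019 to 439.9 CPM, -1.21), Olig2 (732.9 to 272.4 CPM, -1.43), Cspg4 (61.02 to 43.6 CPM, -0.50) and Sox5 (64.59 to 52.26 CPM, -0.31) were among the 5 that fell. Of the precursor genes, 17 of 18 were higher in Neuron than in Astrocyte and 1 lower, where 22.7% of all members were higher. Against Oligodendrocyte 13 were higher and 1 lower, where 24.3% of all members were higher.

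Myelin genes rose for 17 of 19 members with 2 lower, and the median log2 fold change was 2.82. Cnp (chr11:100436218-100453043), an enzyme of the myelin sheath, measured 60.55, 59.49 and 67.33 CPM in NSC and 848.96, 842.37 and 886.43 CPM in Neuron (3.76, adjusted p = 1.28e-13). Mag, an adhesion protein of the inner myelin wrap, measured 0.02, 0.02 and 0.00 CPM in NSC and 36.37, 39.00 and 39.42 CPM in Neuron. The NSC libraries were at or near 0 for Mag, so its log2 fold change of 5.28 depends on the pseudocount. The myelin transcription factor gene Myrf (listed as Gm98) rose from 2.95 to 103 CPM (4.69). Transferrin (Trf, 2.143 to 0.83 CPM, -0.77) and carbonic anhydrase 2 (Car2, 106.4 to 46.92 CPM, -1.17) fell, and 2 genes were below the rule, among them Mog, a late marker of the myelin surface. Compared with Astrocyte 15 of 19 were higher and 1 lower, beside 22.7% and 39.1% of all members. Compared with Oligodendrocyte, which differed by the added T3, 5 of 19 were higher and 9 lower. That split was near the shares over all members, 24.3% higher and 42.9% lower. Mbp did not differ there by the test (-0.26, adjusted p = 0.173).

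**Figure D3:**
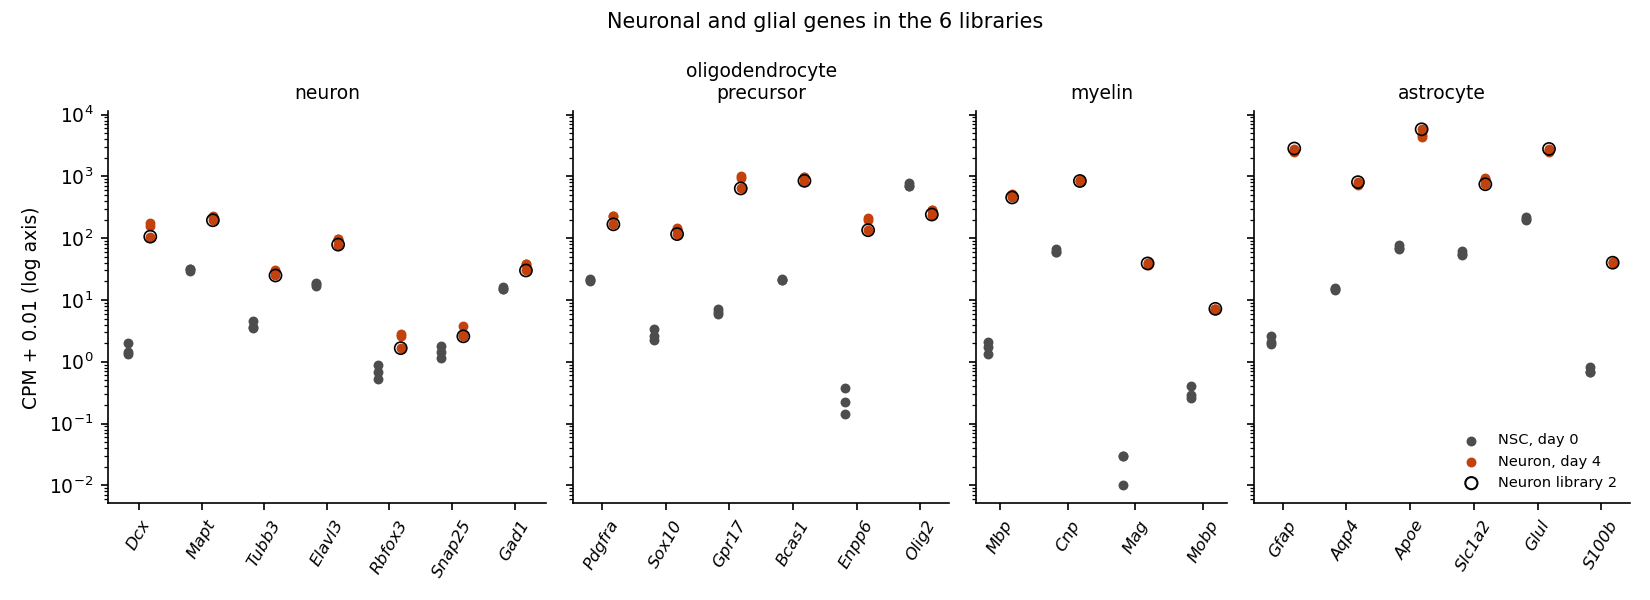
CPM (log axis, with 0.01 added) of neuronal and glial genes in the 6 libraries, with NSC and Neuron in different colors and Neuron library 2 ringed. Neuron points lie above NSC points for most genes, and library 2 is the lowest Neuron point for Dcx, Enpp6 and Gpr17.

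RNA of microglial and endothelial genes was scarce in both groups. The 14 microglia genes summed to 1.6 to 2.4 CPM in NSC and 1.5 to 2.3 CPM in Neuron, with Trem2 and Fcrls at 0 in all 6 libraries. The 9 endothelial genes summed to 2.6 to 2.8 CPM in NSC and 1.4 to 2.2 CPM in Neuron. The 13 mesenchymal and mural genes summed to 104.4 to 111.2 CPM in NSC and 93.4 to 111.3 CPM in Neuron. A large part of both sums came from Cspg4, given above, which is on the precursor list as well. Of the 13 genes 7 were members, 3 higher and 4 lower, and Col1a1, Col1a2 and Col3a1 were under 1 CPM. Among them the PDGF receptor gene Pdgfrb rose from 0.2633 to 37.54 CPM (log2 fold change 4.93). Of the ependymal genes only Foxj1, which drives motile cilia, was a member (17.74 to 45.73 CPM, 1.31), while the other 8 listed were below the rule or at 0.

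Genes of cholesterol synthesis fell throughout. All 17 matched genes were lower, 14 by at least 2-fold, with a median of -1.85. Fdps (chr3:88897514-88905881), which makes farnesyl diphosphate, measured 244.15, 230.39 and 261.95 CPM in NSC and 41.07, 37.99 and 40.17 CPM in Neuron (-2.60, adjusted p = 4.21e-12). Idi1 (chr13:8884747-8891697), an isomerase of the same pathway, measured 81.76, 83.40 and 81.57 CPM in NSC and 17.82, 15.04 and 18.21 CPM in Neuron (-2.21, adjusted p = 1.61e-11). The groups did not overlap for either gene. Compared with the other media they were lower as well, with 15 of 17 lower than in Astrocyte and 14 of 17 lower than in Oligodendrocyte, and 0 higher in either, where 39.1% and 42.9% of all members were lower. Library 2 was the lowest of the Neuron libraries in 15 of 17. Without it, all 17 genes were still lower than in NSC (median -1.78).

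Stress and growth genes fell in part, and lysosomal genes rose. Of 16 genes of the ATF4 response, which supplies amino acids, 11 were lower, 4 higher and 1 not called (median -0.93). Mthfd2, a mitochondrial folate enzyme, measured 54.60, 54.42 and 62.51 CPM in NSC and 1.79, 1.86 and 1.84 CPM in Neuron (-4.36, adjusted p = 7.10e-14). The 4 that rose were Ddit3 (3.043 to 10.24 CPM, 1.47), Slc7a11 (18.65 to 42.57 CPM, 1.13), Psph (31.85 to 48.24 CPM, 0.58) and Phgdh (184.4 to 217.4 CPM, 0.24). The call of Phgdh was lost under median-of-ratios scaling (0.16), with no filter, and without NSC library 1 (0.23) or 2 (0.17) or Neuron library 2 (0.18) or 3 (0.22). Of 16 p53 target genes 13 were lower and 3 higher (median -1.0), among the latter Sesn1 (26.76 to 109.3 CPM, 1.99). The list holds Gtse1, a cell cycle gene as well, which fell from 75.58 to 2.30 CPM (-4.54).

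Of 21 lysosome genes 19 were higher and 2 lower (median 1.31). Ctsl, a protease of that organelle, measured 57.07, 57.88 and 61.62 CPM in NSC and 379.16, 499.02 and 420.96 CPM in Neuron (2.85, adjusted p = 1.63e-12), with library 2 the highest. Ctsh (3.533 to 2.43 CPM, -0.42) and Gla (9.273 to 5.053 CPM, -0.76) fell, but the call of Ctsh was lost with no filter and without NSC library 1 (-0.40), Neuron library 1 (-0.31) or Neuron library 3 (-0.38). Of 16 antioxidant genes 11 rose, 3 fell and 2 were not called (median 0.95). Metallothionein genes Mt2 (14.1 ± 2.29 to 629.9 ± 153 CPM, SD, n = 3; 5.37), Mt1 (41.42 to 750.9 CPM, 4.13) and Mt3 (56.51 to 486.4 CPM, 3.06), which bind zinc and copper, led the rises. They are close relatives in sequence and the sharing of reads between them is not known here. Against the other media 0 of the 16 antioxidant genes were higher in Neuron, 12 were lower than in Astrocyte and 14 lower than in Oligodendrocyte. Of all members 39.1% and 42.9% were lower in these comparisons, and 22.7% and 24.3% higher.

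Genes of the extracellular matrix changed in opposite directions, 10 higher and 11 lower of 23 members. Sparcl1, a secreted protein of astrocytes, measured 8.36, 7.97 and 9.28 CPM in NSC and 499.43, 491.12 and 481.72 CPM in Neuron (5.69, adjusted p = 1.56e-14). Tnc (chr4:63620819-63681760), the tenascin of the progenitor niche, measured 953.37, 1037.10 and 966.66 CPM in NSC and 21.08, 13.62 and 21.19 CPM in Neuron (-5.68, adjusted p = 4.76e-13). The related Tnr, made by oligodendrocyte lineage cells, rose from 18.13 to 340 CPM (3.99). The laminin gene Lamb1 fell from 26.4 to 2.40 CPM (-3.02).

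Wnt genes did not move as a group (8 higher, 9 lower, 3 not called of 20). Their median was 0.14, with 4 genes at least 2-fold higher and 4 at least 2-fold lower. The Wnt target Axin2 fell from 31.0 to 11.7 CPM (-1.33) and the receptor gene Fzd9 fell from 68.34 to 9.813 CPM (-2.68). Dkk3, of the same list, rose from 0.46 to 45.88 CPM (5.00). For BMP and TGF-beta genes 13 of 22 were higher, 7 lower and 2 not called (median 0.35). Id4 rose from 2.97 ± 0.362 to 155.2 ± 1.57 CPM (5.30, adjusted p = 6.26e-15) and Id2 from 34.7 to 114 CPM (1.69), whereas Id3 fell. The ligand gene Bmp7 fell from 43.12 to 4.267 CPM (-3.07).

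**Figure D4:**
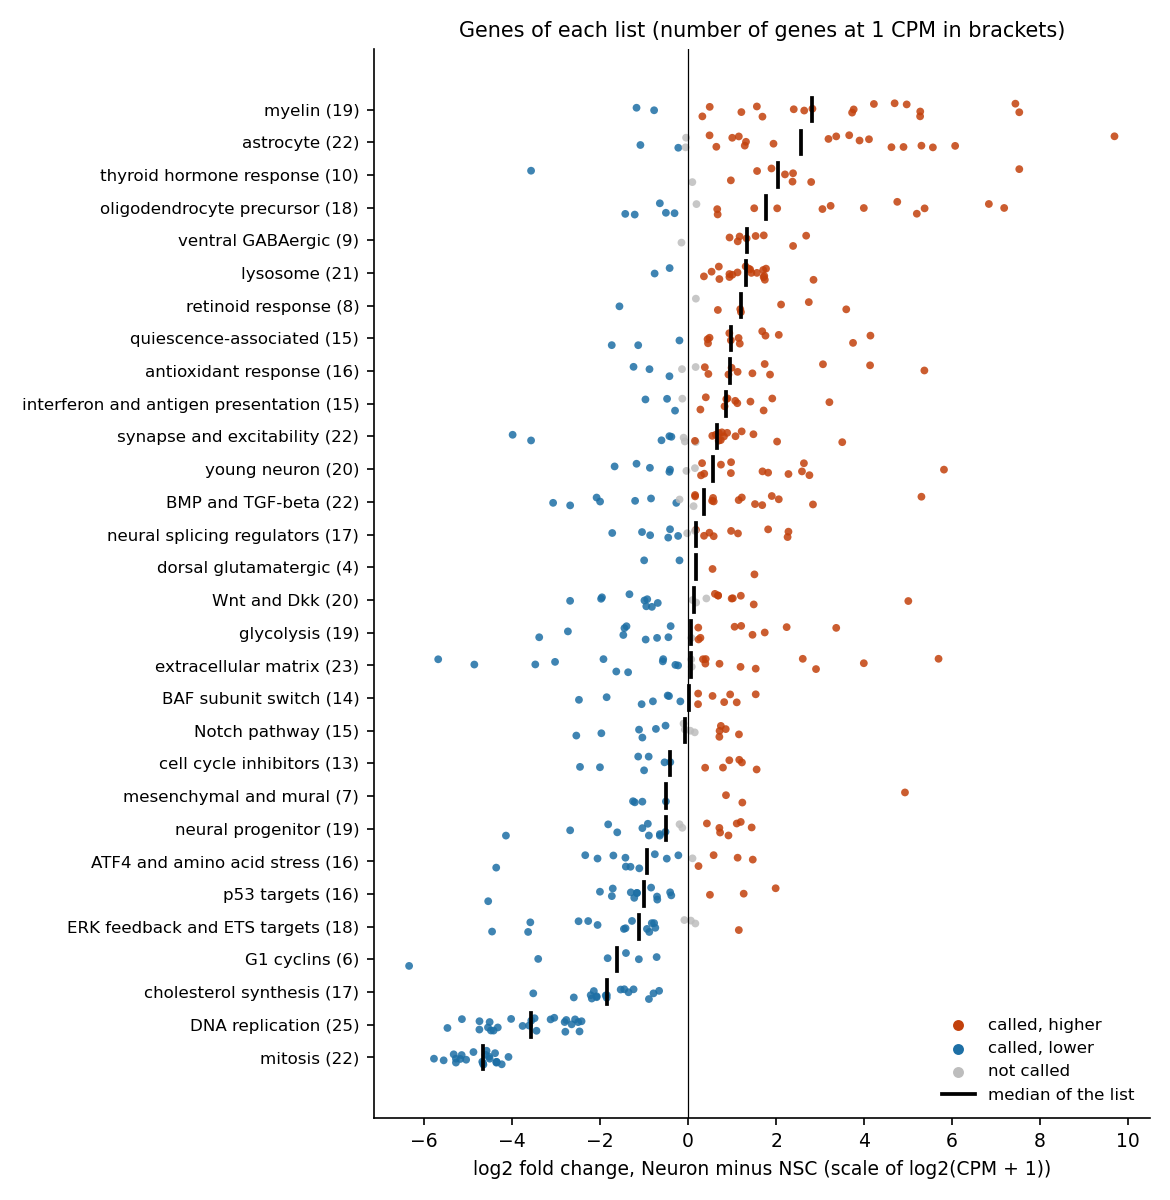
Log2 fold change (Neuron minus NSC) of each member of the gene lists, 1 row for a list, with points colored by the call and a line at the median. Replication and mitosis genes lie wholly below 0, cholesterol genes too, while astrocyte, myelin and lysosome genes lie mostly above it.

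Among the 10 largest rises of called members that averaged 10 CPM or more in either group and did not overlap were Gfap, Mbp, C4b, Enpp6, Ndrg2, Gpr17, Gm13111, Pla2g7 and Cldn10. The complement gene C4b measured 0.57, 0.56 and 0.57 CPM in NSC and 256.67, 243.53 and 273.21 CPM in Neuron (7.37, adjusted p = 4.75e-16). It has a near-identical neighbour, so its reads may be shared. Ndrg2, of glia, measured 8.71, 8.56 and 10.03 CPM in NSC and 1293.38, 1535.64 and 1387.37 CPM in Neuron (7.12). No NSC library came near any Neuron library for either gene.

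The 10 largest falls were Ccnd1, Mki67, Cd93, Apln, Car3, Tnc, Ccna2, Hmmr, Uhrf1 and Tk1. Hmmr and Uhrf1, of mitosis and of DNA methylation upkeep, join the replication genes. Cd93 measured 116.23, 110.98 and 106.86 CPM in NSC and 1.24, 1.00 and 0.99 CPM in Neuron (-5.76, adjusted p = 5.28e-15). Apln, which encodes the signalling peptide apelin, measured 97.76, 112.27 and 113.71 CPM in NSC and 1.01, 1.09 and 1.01 CPM in Neuron (-5.74, adjusted p = 3.41e-15). It was also lower in Neuron than in Astrocyte (-2.31) and Oligodendrocyte (-2.53).

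Direct tests showed where the neuron medium differed from all other groups. At least 2-fold higher than NSC, Astrocyte and Oligodendrocyte, each with an adjusted p under 0.05, were 110 genes (0.856% of members), and at least 2-fold lower were 90 (0.700%). These counts depend on the pseudocount: with 0.1 and 5 in place of 1 there were 172 and 59 higher and 196 and 15 lower genes. Dkk3 (chr7:119259533-119302571), a secreted relative of Wnt antagonists, measured 44.24, 43.77 and 49.64 CPM in Neuron, 0.42, 0.54 and 0.42 CPM in NSC, 3.68, 3.39 and 3.98 CPM in Astrocyte, and 0.92 and 0.85 CPM in Oligodendrocyte. The basement membrane gene Nid1 (chr13:13529869-13604542) measured 86.61, 75.08 and 88.37 CPM in Neuron, 10.00, 10.02 and 10.65 CPM in NSC, 11.44, 11.18 and 12.37 CPM in Astrocyte, and 7.10 and 6.15 CPM in Oligodendrocyte. Neuron libraries stood apart from every other library for both genes. The log2 difference to the nearest group was 3.32 for Dkk3 (Astrocyte, adjusted p = 1.39e-11) and 2.73 for Nid1 (Astrocyte, adjusted p = 3.39e-11).

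The phosphatase gene Dusp26 measured 50.49, 53.65 and 53.38 CPM in Neuron and at most 8.93 CPM in any other library. 3110035E14Rik, of unnamed function, measured 286.98, 238.08 and 293.33 CPM in Neuron and at most 35.41 CPM elsewhere. Sox10, Pdgfra, Slc1a2 and Cldn10 were also among the 110 genes.

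Of the 90 lower genes, Smpdl3b, a membrane lipid enzyme, measured 2.94, 4.34 and 3.56 CPM in Neuron and 22.87 to 29.34 CPM in the other libraries. Sema3c, a secreted guidance protein, measured 1.62, 2.37 and 2.36 CPM in Neuron and 11.61 to 16.13 CPM elsewhere. Fam38a, which encodes the mechanically gated channel Piezo1, measured 5.50, 3.55 and 5.83 CPM in Neuron and 18.18 to 30.90 CPM elsewhere. Nes, E2f1, Hk2 and Pgk1 were among the 90 too. For these 3 genes no Neuron library reached the level of any other library.

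**Figure D5:**
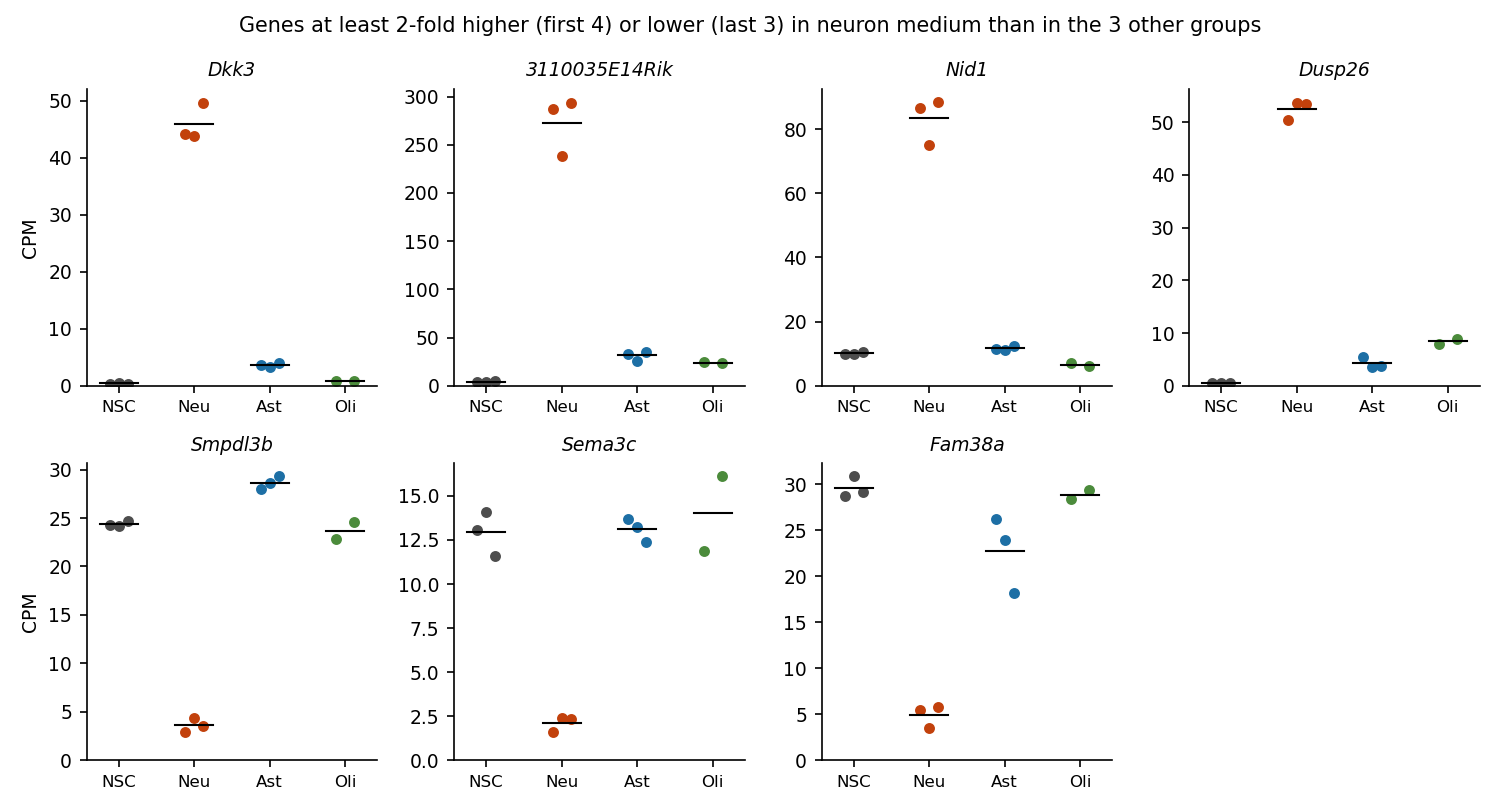
CPM in each library of the 4 groups for 4 genes at least 2-fold higher and 3 genes at least 2-fold lower in Neuron than in the other 3 groups, on a linear axis from 0. The Neuron points stand above or below all others, as for Dkk3 (43.77 to 49.64 CPM) and Smpdl3b (2.94 to 4.34 CPM).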

How the data were processed

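The file that the authors deposited held CPM (rounded to 2 decimals) for 37991 genes and 11 libraries, with positions on mouse build mm9, per the file headers. Per the submitters' processing notes, bcl2fastq 1.8.4, TopHat2 2.0.8, HTSeq 0.6.1, edgeR 3.2.4 under R 3.0.0 and HOMER were used, with build NCBIM37. The annotation release and the use of strand in counting were not given in the sources used here, so reads of overlapping and antisense genes cannot be told apart. The deposited columns of group means and SDs were not used. The labels call the samples biological replicates without naming their cultures, so p-values measure the spread between these samples, which may be technical.

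Values were taken as log2(CPM + 1), so folds of low genes are understated. The 13342 genes that reached 1 CPM in 2 or more of 11 libraries were fitted with 1 mean per group in limma 3.58.1 (R 4.3.3; trend, 7 residual degrees of freedom), adjusted by Benjamini-Hochberg over all of them and called at an adjusted p under 0.05. Every adjusted p of a gene is from this fit, and values in brackets after CPM are log2 fold changes from it. The fit was tested on simulated data. Members and lists were chosen with earlier results of these data known. Named genes are the 5 markers, the 10 largest rises and falls, 5 genes higher and 3 lower than all groups, and in each list the 3 called members with the largest change, those against the majority and others needed to account for it. Some of the genes so chosen are not reported here. Listed genes summed to 74.95% to 80.25% of the full CPM scale, so the CPM denominator held reads outside the listed genes. The labels give replicate numbers without stating a pairing, so no pairing was used.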

Additional observations from a re-analysis of the deposited data

How the results depend on the processing

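The number of called genes (10798) kept within 1.5 times under every alternative run: 10777 and 10773 with pseudocounts of 0.1 and 5, 12703 with no filter, 9213 with a filter at 5 CPM, 10878 and 10595 with median-of-ratios and quantile scaling, 10570 with the 6 libraries alone, 10769 without the trend, and 10412 to 10998 leaving out each library in turn. The number changed by at least 2-fold (4237) was 2784 with a pseudocount of 5, with 1417 higher, and 3629 to 4970 under the other alternatives. Genes higher than all 3 other groups (110) numbered 172 and 59 with pseudocounts of 0.1 and 5, and genes lower (90) numbered 196 and 15. Leaving out each library gave 106 to 126 and 85 to 98. Higher genes were 51.3% of calls, 48.2% under median-of-ratios and 49.6% under quantile scaling, 47.5% with the filter at 5 CPM and 53.4% with no filter, so the balance of directions over all genes depends on the scaling and the filter. Of 2486 values of 156 named genes under the alternatives, 2460 kept their direction and their side of the threshold, 16 lost the call, 9 gained it and 1 changed sign. H2-K1 and Lrig1 lost it under quantile scaling (-0.19 and -0.05), and H2-K1 also without NSC library 3 (-0.23). Id1, Etv1, Lif and Spred1 gained it under quantile scaling (-0.37, 0.25, -0.53 and 0.16). Ptprz1 was not called (log2 fold change 0.19), but was called lower under quantile scaling (-0.25) and higher without Neuron library 2 (0.31). Whether same-numbered samples are paired is not known from the labels. Deviations of same-numbered libraries from their group means correlated at 0.228, -0.516 and -0.334. These values cannot settle it, because the deviations of the 3 libraries of a group sum to 0. A fit with the replicate block called 10786 genes. A count test planned as an alternative was not run, because whole reads could not be recovered from the rounded CPM: 24.4% to 61.5% of values under 3 CPM lay within 0.1 of a whole read. Genes near 1 CPM are limited by depth and by the rounding to 2 decimals.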

Other observations

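Several further gene lists changed between day 0 and day 4 in neuron medium. Of 10 members of the thyroid hormone response list, 8 were higher, 1 lower and 1 not called (median log2 fold change 2.05, beside 0.03 over all members). The receptor genes Thra (77.0 to 403 CPM, 2.37) and Thrb (5.08 to 16.9 CPM, 1.57) rose, as did Dio2, which activates the hormone (13.3 to 64.7 CPM, 2.20), and Hr (0.907 to 9.02 CPM, 2.38). T3 was added as a separate component in the Oligodendrocyte medium alone. Whether the B-27 and N-2 supplements or the serum held hormone or retinoids is not given here. Thrsp measured 5.30, 5.11 and 6.74 CPM in NSC and 40.08, 54.05 and 43.26 CPM in Neuron (2.80), and averaged 1.145 CPM in Oligodendrocyte and 79.0 CPM in Astrocyte. Of 16 retinoid genes listed, 8 were below the rule. Of the 8 members 6 were higher, 1 lower and 1 not called, beside 43.1% higher and 40.9% lower of all members. Rarb, a receptor gene, rose from 1.83 to 11.26 CPM (2.11), and Dhrs3, which reduces retinal, from 0.037 to 11.64 CPM. Aldh1a3, which makes retinoic acid, fell from 2.477 to 0.18 CPM (-1.56). Dhrs3 became a member through Neuron alone and Aldh1a3 through NSC alone, so both had to differ to some degree.

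Glycolysis genes were divided, 9 higher and 9 lower of 19. Hk2 (29.35 to 1.927 CPM, -3.38), Ldha (459.5 to 68.59 CPM, -2.73) and Pkm (listed as Pkm2; 1045 to 395.5 CPM, -1.40) fell, and Ldhb (92.0 to 440 CPM, 2.24), Pfkm (69.4 to 234 CPM, 1.74) and Aldoc (111.2 to 1156 CPM, 3.37) rose. Compared with the other media, 15 of 19 were lower in Neuron than in Astrocyte and 14 lower than in Oligodendrocyte, with 2 higher in each. Of all members 39.1% and 42.9% were lower in these comparisons, and 22.7% and 24.3% higher. Of 15 interferon and antigen presentation genes 11 were higher and 3 lower. Ifit3 rose from 0.1533 to 9.743 CPM (3.21), and H2-K1, Tap1 and Bst2 fell. Neuron library 2 was the highest Neuron library in 11 of these 15 genes and in 13 of the 19 glycolysis genes, and without it the interferon list had 11 higher and 3 lower (median 0.75, against 0.87) and the glycolysis list 9 and 9 (median 0.03, against 0.08). Of 15 genes tied to stem cell quiescence 12 were higher, led by Txnip (8.18 to 160.8 CPM, 4.14), and Klf4, Gas1 and Lrig1 were lower.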
